A study of Mus musculus with 6 samples.

Results

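The genes described here encode receptors for haematopoietic cytokines and growth factors, and the JAK kinases that relay the signal of many of them. They form a list of 43 genes, and every probe set annotated to a single gene of that list was taken as a member. Of the 43 genes, 41 had such a probe set, and these genes had 83 of the 45037 probe sets on an Affymetrix mouse expression array. A limit on low signals was passed by 71 of the 83, which covered 40 genes out of 11529 genes measured. The gene missing through that limit was Jak3, the kinase that works with the common gamma chain, with signals of 64.7, 2.60 and 24.5 on the WT arrays and 25.0, 9.10 and 37.1 on the DKO arrays. For Il2rg, the common gamma chain itself, and Il11ra1 no probe set was named, and they were not analysed here.

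The RNA came from bone marrow cells sorted for lack of lineage markers and presence of Sca1, a fraction enriched in haematopoietic stem cells. The control group was wild-type (WT) mice. The other group was double knockout (DKO) mice, which lack Nr4a1 and Nr4a3, a pair of orphan nuclear receptors, and were bred from the single Nr4a1-/- and Nr4a3-/- lines on a background mixed from C57BL/6 and 129SvJ. The labels give no strain for the WT mice and name no Cre line or cell type for the deletion, and both groups were 2 to 3 weeks old. There were 3 arrays per group, hybridised with RNA from pools of 10 to 20 mice, so errors are those between pools. The labels name no batch. The comparison sets cells of the 2 genotypes side by side, and if the WT mice were of another strain, strain and deletion cannot be told apart in any difference given here.

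The Nr4a1 signal was 1111, 1269 and 816 in WT and 8.0, 22.4 and 33.8 in DKO, which follows the labels. The probe sets of Nr4a3 were all under the limit on low signals and check nothing. The array median of the signals lay between 91.7 and 123. Among 8 measured genes of a stem cell marker list 6 fell in DKO, and its summed signal was 34274 to 41349 in WT and 15996 to 19943 in DKO. Of 12 genes in a mast cell, basophil and eosinophil list 8 rose (summed signal 3100 to 14153 in WT and 30880 to 38118 in DKO). Of 13 genes in a T and NK cell list 9 rose (3997 to 4898 against 12475 to 18696). Over all genes 1.08% rose and 0.633% fell. Among the marker genes that rose, Fcer1a, Ccr3, Gzmb, Cd3e and Eomes had WT signals all under the limit on low signals. They passed it through their DKO signals. None of the marker genes is among the receptors and kinases. In bulk RNA, fewer cells of a type and less RNA per cell cannot be told apart. WT replicate 2 stood apart within WT, with the highest mean level of the neutrophil and erythroid marker lists, at 1.46 and 1.85 log2 units from the average of all arrays. WT replicate 3 was at -1.03 and -1.69 for these lists.

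Receptors of blood cells fall into a few structural families. Kit and Flt3 are receptor tyrosine kinases, which bind stem cell factor and FLT3 ligand and phosphorylate their own tails. Most interleukin and colony-stimulating factor receptors have no kinase of their own. They pair a ligand-specific chain with a shared chain, such as the common beta chain, gp130 or the common gamma chain, and hold JAK kinases, which phosphorylate STAT transcription factors. SOCS proteins then damp the signal. Which chains a progenitor carries sets which growth factors it can respond to, and stem cells, myeloid and lymphoid precursors are told apart by them in the sorting of marrow.

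In DKO cells the beta chain genes Csf2rb and Csf2rb2 rose and the receptor gene Flt3 fell. None of the other measured genes passed the limma test. The brightest tested probe set of a gene stood for it. Of the 40 genes measured, 3 passed an adjusted p of 0.05 (7.5%), against 1.71% of all 11529 genes. The 2 rises stand beside a background of 1.08% of genes higher and the 1 fall beside 0.633% lower. Csf2rb and Csf2rb2 are close copies, so these 2 rises may not be separate. The list was also chosen with earlier results of these data known. In 16 of the 40 genes (40%) the WT and DKO arrays did not overlap, against 22.0% of all genes, and the median log2 difference was 0.13, against -0.01 over all genes. Log2 differences are DKO minus WT on the log2(signal + 16) scale, their errors are standard errors, and "rose" and "fell" are used for values past the threshold. By direction, 21 of the 40 were higher and 19 lower. For 4 of them (Il1r1, Ifnar2, Il10rb and Tnfrsf1a), all within 0.11 of 0 at the authors' scaling, the sign flipped with quantile normalization or median centring. Median centring moved the median difference of all probe sets by 0.11.

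**Figure D1:**
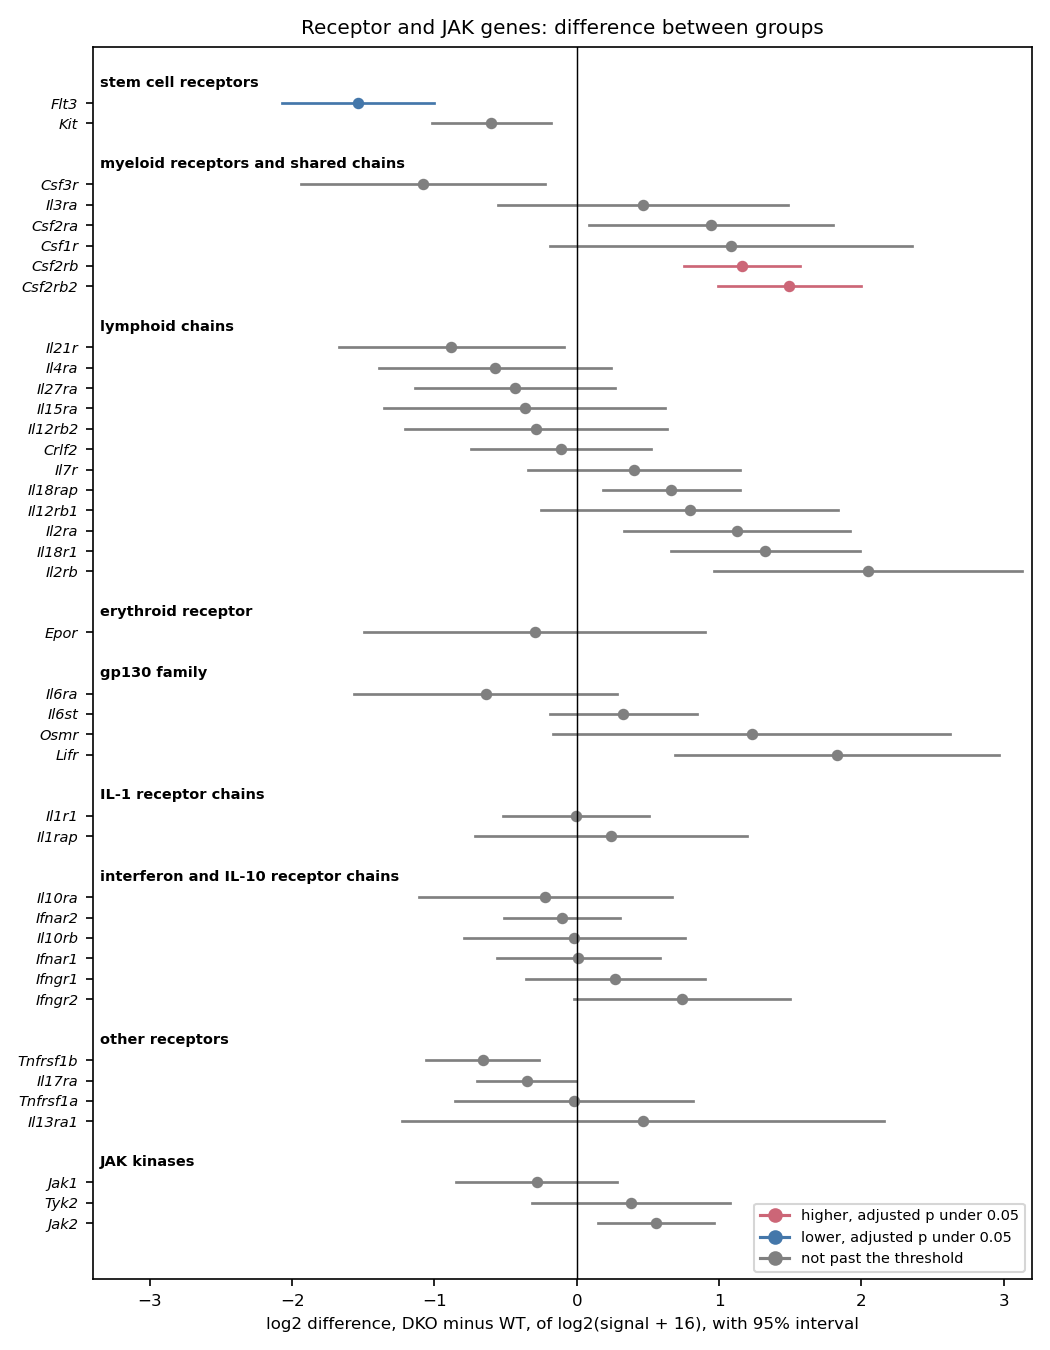
Log2 difference between DKO and WT for each of the 40 measured genes, in log2 units on the x axis, with genes grouped by class on the y axis. Points are estimates over 3 arrays per group and bars are 95% intervals, with red for higher and blue for lower past an adjusted p of 0.05. Flt3 at -1.54 and the beta chain genes at 1.16 and 1.49 are the coloured points, and the other intervals are grey.

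The stretches upstream of the genes named most often below are given for reference, 5′ to 3′ on the strand of the gene, from the RefSeq promoter table of build GRCm38.p6. They cover the 250 bases before the annotated start. A promoter was in that table for 35 of the 43 genes, Csf2rb not among them. Capitals mark matches, on either strand, to AAAGGTCA (the element bound by NR4A receptors), AGATAA (the motif of GATA factors), GAGGAA (PU.1 and other ETS factors), TGTGGT (RUNX factors), TTCNNNGAA (STAT factors) or TTGCNNAA (C/EBP factors). Flt3 and Kit are shown as the stem cell receptors, Csf2rb2 as the gene with the smallest p, and Il21r as the 1 gene of the 35 with a match to the NR4A element. Flt3 is at chr5:147400490-147400739 on the minus strand, Kit at chr5:75574737-75574986 on the plus strand, Csf2rb2 at chr15:78305722-78305971 on the minus strand and Il21r at chr7:125603179-125603428 on the plus strand.
Flt3: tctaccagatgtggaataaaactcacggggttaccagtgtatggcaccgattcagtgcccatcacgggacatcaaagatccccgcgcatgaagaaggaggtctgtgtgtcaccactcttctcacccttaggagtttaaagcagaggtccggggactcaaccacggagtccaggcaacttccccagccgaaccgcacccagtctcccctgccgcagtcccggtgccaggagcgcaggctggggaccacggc
Kit: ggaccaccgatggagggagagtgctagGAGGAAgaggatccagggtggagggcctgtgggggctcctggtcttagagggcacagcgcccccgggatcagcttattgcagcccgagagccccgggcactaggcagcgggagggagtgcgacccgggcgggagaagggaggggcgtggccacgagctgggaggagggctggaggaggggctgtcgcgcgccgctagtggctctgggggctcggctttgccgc
Csf2rb2: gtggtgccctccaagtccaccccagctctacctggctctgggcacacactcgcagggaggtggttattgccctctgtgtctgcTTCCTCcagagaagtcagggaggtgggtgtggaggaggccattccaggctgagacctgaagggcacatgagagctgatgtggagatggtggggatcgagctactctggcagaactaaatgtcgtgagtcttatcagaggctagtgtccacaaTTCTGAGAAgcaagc
Il21r: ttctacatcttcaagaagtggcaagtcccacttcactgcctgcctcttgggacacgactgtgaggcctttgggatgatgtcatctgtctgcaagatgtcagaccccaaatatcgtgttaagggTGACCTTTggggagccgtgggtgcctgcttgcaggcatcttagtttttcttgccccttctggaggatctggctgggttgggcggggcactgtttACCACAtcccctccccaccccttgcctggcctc
The Flt3 window holds no match to the 6 motifs, and the Kit window 1 GAGGAA, at -223 to -218. The Csf2rb2 window holds GAGGAA on the opposite strand at -167 to -162 and a STAT match, TTCTGAGAA, at -15 to -7, just before the start. The Il21r window holds the NR4A element on the opposite strand at -127 to -120 and TGTGGT on the opposite strand at -33 to -28. No match overlaps another in these windows. Over 32851 mouse promoter windows of the same length 1.34% hold the NR4A element, 9.99% the GATA, 23.3% the PU.1, 14.0% the RUNX, 7.02% the STAT and 9.56% the C/EBP motif. Among the 42 windows of the receptors and kinases the shares were 2.38%, 4.76%, 33.3%, 11.9%, 16.7% and 7.14%. The STAT matches lie in 7 genes, Csf2rb2, Ifnar2, Il12rb2, Il18r1, Il7r, Tnfrsf1a and Tnfrsf1b. A match is a run of letters, not a bound site.

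The stem cell receptors were both lower in DKO, and Flt3 fell. Flt3, the receptor of early lymphoid and dendritic progenitors, had signals of 1798, 1347 and 2067 in WT and 555, 578 and 606 in DKO. The lowest WT array lay above the highest DKO array by more than the spread of either group, and the DKO arrays were close to each other. The log2 difference was -1.54 ± 0.25 (SE), adjusted p = 0.0108, a fall of 2.90-fold. Kit, the stem cell factor receptor that marks most stem and progenitor cells, had signals of 2963, 2419 and 2954 in WT and 1968, 1827 and 1679 in DKO. Its groups did not overlap either, at 2779 ± 312 (SD, n = 3) against 1825 ± 144 (n = 3), but the difference of -0.60 ± 0.19 did not pass (adjusted p = 0.166). A second Kit probe set was at -0.42 ± 0.24 (adjusted p = 0.454). The call of Flt3 was lost without WT replicate 1 (adjusted p = 0.0629), without DKO replicate 1 (adjusted p = 0.0593), without DKO replicate 3 (adjusted p = 0.0545) and without an intensity trend (adjusted p = 0.0660), while its log2 difference stayed between -1.71 and -1.40 with an array left out. Of the 8 stem cell markers, Mecom, Procr, Hlf, Mllt3, Meis1 and Hoxa9 fell as well, while Cd34 (-0.78, adjusted p = 0.0672) and Slamf1 (0.37, adjusted p = 0.725) did not pass, and the part of these markers in the Flt3 and Kit values was not tested.

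The beta chain that receptors of IL-3, IL-5 and GM-CSF share was higher in DKO, as was a beta chain of the IL-3 receptor. Csf2rb, the common beta chain, had signals of 2132, 2495 and 1857 in WT and 5507, 4303 and 4720 in DKO, so that every DKO array lay above every WT array. It rose by 1.16 ± 0.19 (adjusted p = 0.0117), or 2.24-fold. A second Csf2rb probe set gave 1306, 825 and 874 in WT and 2970, 5003 and 2657 in DKO, a log2 difference of 1.78 ± 0.28 (adjusted p = 0.00902). Csf2rb2, a mouse beta chain that serves the IL-3 receptor, had signals of 660, 899 and 660 in WT and 2302, 1894 and 2093 in DKO. Its rise of 1.49 ± 0.23 (adjusted p = 0.00853), or 2.82-fold, was again clear of any overlap between the groups. The genes lie next to each other on chromosome 15 with 0 coding genes between them and are close copies. Whether probes of 1 gene bind RNA of the other was not tested, and a probe set annotated to both was left out.

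The call of Csf2rb was lost without WT replicate 1 (adjusted p = 0.0547), DKO replicate 1 (adjusted p = 0.0744) or DKO replicate 3 (adjusted p = 0.0568). That of Csf2rb2 was lost without DKO replicate 1 (adjusted p = 0.0672) or DKO replicate 3 (adjusted p = 0.0575). Without an intensity trend neither passed (adjusted p = 0.130 and 0.0665). The log2 differences lay between 1.06 and 1.27 for Csf2rb and between 1.42 and 1.64 for Csf2rb2 whichever array was left out. The mast cell, basophil and eosinophil marker list, whose cells carry these chains, was higher in every DKO array (mean log2 level 1.24 to 1.46) than in every WT array (-1.83 to -0.65), and its part in these rises was not tested.

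The ligand-specific partners of the beta chain did not pass. Csf2ra, the GM-CSF receptor alpha chain, had signals of 358, 131 and 303 in WT and 444, 452 and 566 in DKO, with no overlap (0.95 ± 0.39, adjusted p = 0.301). A dimmer Csf2ra probe set showed no such gap, at -0.07 ± 0.45. Il3ra, the IL-3 receptor alpha chain, overlapped between the groups (94.6 ± 49.5 against 128 ± 24.8, log2 0.47 ± 0.47, adjusted p = 0.706). Il5ra, the IL-5 receptor alpha chain and no member of the list, was at 47.5, 192 and 58.5 in WT and 495, 327 and 313 in DKO. Its difference of 1.96 ± 0.49 missed the threshold (adjusted p = 0.0818), and without WT replicate 2, its highest WT array, it was 2.49 (adjusted p = 0.0129). Among all alternative settings and arrays left out, 2 took Il5ra past the threshold and 13 did not.

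By the brightest probe set, the receptors of the colony-stimulating factors for granulocytes and macrophages lay on opposite sides of 0, and neither passed. Csf3r, the G-CSF receptor of neutrophils and their precursors, had signals of 194, 361 and 234 in WT and 109, 110 and 117 in DKO. All DKO arrays lay below all WT arrays and close together, but the difference of -1.08 ± 0.39 did not pass (adjusted p = 0.230). Csf1r, the M-CSF receptor of monocytes and macrophages, had signals of 540, 3226 and 812 in WT and 1650, 1654 and 5109 in DKO. WT replicate 2 lay above both lower DKO arrays, and the spread within each group was large (1526 ± 1478 against 2804 ± 1996, log2 1.09 ± 0.58, adjusted p = 0.427). Without WT replicate 2 the difference was 1.84 (adjusted p = 0.0671). With any 1 array left out it ranged from 0.55 to 1.84, with adjusted p up to 0.775. The 2 other Csf1r probe sets were at 0.48 and -0.45. In the monocyte, macrophage and dendritic marker list, 3 of 9 genes rose, with summed signals of 8037 to 23484 in WT and 13683 to 14505 in DKO, and its part in the Csf1r values was not tested. The neutrophil marker list, in which 0 of 7 genes passed, had summed signals of 17338 to 81342 in WT and 29077 to 50679 in DKO.

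**Figure D2:**
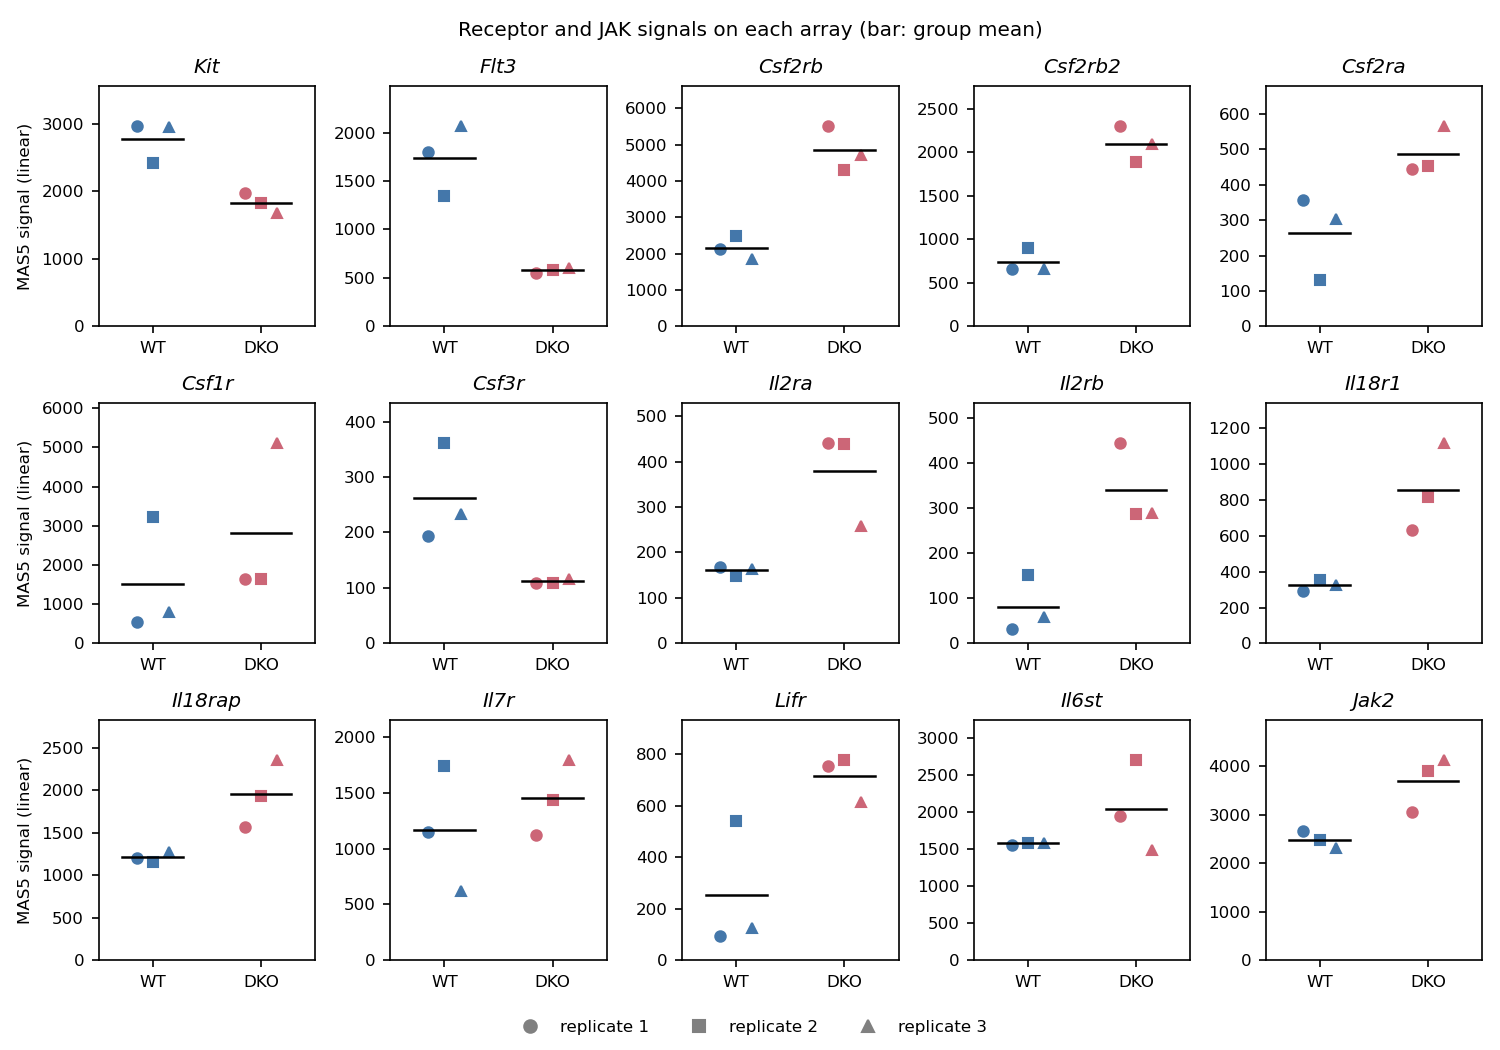
MAS5 signal on a linear scale (y axis, from 0) for 15 receptor and kinase genes, with WT and DKO on the x axis. Each point is 1 array, its shape gives the replicate number and the bar is the group mean. Flt3, Csf2rb and Csf2rb2 show a gap between the groups, while in Csf1r, Il7r and Il6st the groups overlap.

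Lymphoid receptor chains stood on both sides of 0. Of 13 listed chains 12 were measured, 6 higher and 6 lower, and 0 passed by limma, with 5 of 12 at an unadjusted p under 0.05, against 15 of the 40 receptors and kinases (37.5%) and 16.3% of all genes. With array quality weights 2 passed, Il2rb and Il18r1. The 3 largest differences were all higher. Il2rb, the IL-2 and IL-15 receptor beta chain of T and NK cells, had signals of 32.3, 153 and 58.1 in WT and 445, 287 and 289 in DKO. The DKO arrays were all above the WT arrays, but the difference of 2.05 ± 0.50 missed the threshold (adjusted p = 0.0729). The dimmer Il2rb probe set passed, with 24.0, 39.2 and 35.4 in WT against 149, 266 and 272 in DKO (2.29 ± 0.44, adjusted p = 0.0272). Its WT signals were all under the limit on low values (about 53.2), so it was tested through its DKO signals alone and adds no independent support. The brighter one lay between 1.64 and 2.55 with any 1 array left out, with adjusted p up to 0.242. Of these fits it passed only in the one without WT replicate 2 (2.55, adjusted p = 0.0158). Il2ra, the IL-2 receptor alpha chain, had signals of 169, 148 and 164 in WT and 441, 438 and 258 in DKO. Its difference of 1.13 ± 0.36 was without overlap and did not pass (adjusted p = 0.173).

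The IL-18 receptor chains were higher without passing. Il18r1, the chain that binds IL-18, had signals of 293, 352 and 325 in WT and 632, 816 and 1116 in DKO. The WT arrays were close together and well below the DKO arrays, at 1.33 ± 0.30 (adjusted p = 0.0589). Il18rap, its accessory chain, had signals of 1206, 1156 and 1278 in WT and 1573, 1938 and 2356 in DKO, also without overlap, at 0.66 ± 0.22 (adjusted p = 0.186). A dimmer Il18rap probe set overlapped between the groups (0.36 ± 0.27, adjusted p = 0.597). Il18r1 and Il18rap lie side by side on chromosome 1, where Il1r1, with 2 coding genes between it and Il18r1, was at -0.0043 ± 0.23. The T and NK cell marker list, whose cells use these chains, was higher in every DKO array (mean log2 level 1.06 to 1.67) than in every WT array (-1.66 to -1.09), and its part was not tested. In that list Gzmb, Cd3e and Eomes were near the bottom of the scale in WT, at 1.40 to 38.5, 3.30 to 18.7 and 7.1 to 37.3. They passed the limit on low values through their DKO signals.

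Il7r, the IL-7 receptor of lymphoid progenitors and innate lymphocytes, overlapped between the groups, at 1143, 1739 and 622 in WT and 1125, 1433 and 1791 in DKO. The difference was 0.40 ± 0.34 (adjusted p = 0.647, 95% interval -0.35 to 1.15), so a difference of 2-fold in the higher direction lies inside the interval. Il12rb1, a chain of the IL-12 and IL-23 receptors, was at 0.79 ± 0.48 (adjusted p = 0.490). Of the 6 chains that were lower, Il21r, the IL-21 receptor, had the largest difference. Its signals were 677, 560 and 595 in WT and 404, 449 and 184 in DKO, without overlap (-0.88 ± 0.36, adjusted p = 0.293). With any 1 array left out its difference lay between -1.11 and -0.50, with adjusted p up to 0.575. Il4ra, the IL-4 receptor that lies next to Il21r on chromosome 7, was at -0.57 ± 0.37, although a dimmer probe set was at 0.56 ± 0.41. Il27ra, Il15ra, Il12rb2 and the TSLP receptor gene Crlf2 were at -0.43, -0.37, -0.29 and -0.11, and their groups overlapped except for Il27ra.

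Set side by side, the class mean of the stem cell receptors was lower and the means of the 2 other classes were higher in DKO. With each gene centred on its average log2 level, the mean of a class was 0.27 to 0.72 in WT and -0.56 to -0.51 in DKO for the 2 stem cell receptors. For the 6 myeloid receptors and shared chains it was -0.63 to 0.05 in WT and 0.21 to 0.58 in DKO, and for the 12 lymphoid chains -0.22 to -0.07 and 0.10 to 0.20. The members of these 2 classes did not all move together. Of the lymphoid chains 6 were higher and 6 lower (median 0.15), with Il2rb, Il18r1 and Il2ra the largest differences. The myeloid class counts the close copies Csf2rb and Csf2rb2 as 2 genes, and its member Csf3r went the other way (-1.08). The stem cell receptors minus the myeloid class differed between DKO and WT by -1.75 (SD between arrays 0.43), minus the lymphoid class by -1.38 (SD 0.23), and the myeloid minus the lymphoid class by 0.37 (SD 0.25). These are descriptions with no test. WT replicate 2 lay nearest to DKO in all 3 classes. With a limit on low signals raised to the lowest 60%, which removes dim members, the first and the last of these values were -2.24 and 1.02.

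**Figure D3:**
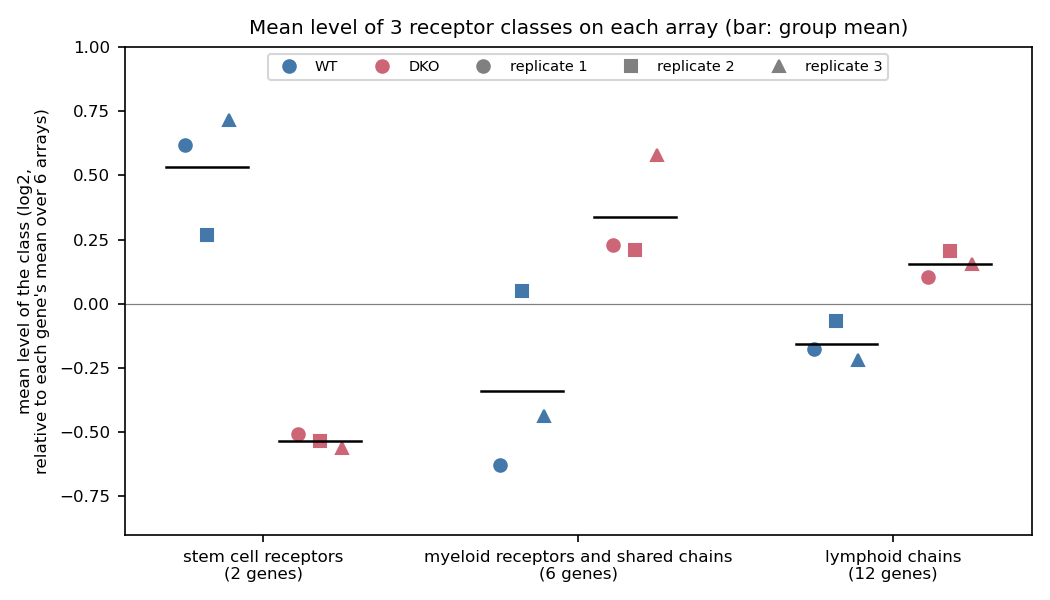
Mean level of 3 receptor classes on each array (y axis, log2, each gene centred on its average), with points for arrays, shapes for replicate numbers and bars for group means. The stem cell receptors lie at 0.27 to 0.72 in WT and at -0.56 to -0.51 in DKO, and in both other classes the DKO arrays are the higher ones.

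The receptors of the gp130 family held 1 gene with a large difference. Lifr, the leukaemia inhibitory factor receptor, had signals of 92.9, 541 and 126 in WT and 757, 778 and 615 in DKO. The groups did not overlap, but WT replicate 2 lay near the DKO arrays, and the difference of 1.83 ± 0.52 did not pass (adjusted p = 0.125). With any 1 array left out it lay between 1.37 and 2.55, with adjusted p up to 0.326. Of these fits it passed only in the one without WT replicate 2 (2.55, adjusted p = 0.00323). The other Lifr probe sets, at 1.58 and 1.69, did not pass either (adjusted p = 0.0975 and 0.102). Their WT signals, 24.0 to 54.0 against 131 to 180 in DKO, were all near or under the limit on low values. They passed that limit through their DKO signals, so they add no independent support. With WT signals this dim, they cannot show whether WT replicate 2 stands apart. Osmr, the oncostatin M receptor next to Lifr on chromosome 15, was dim, at 6.6, 43.0 and 107 in WT and 59.4, 121 and 188 in DKO (1.23 ± 0.64, adjusted p = 0.411). Il6st, the shared gp130 chain itself, had signals of 1562, 1590 and 1589 in WT and 1949, 2702 and 1491 in DKO, which overlapped (0.33 ± 0.24, adjusted p = 0.578). Its 3 other probe sets were at 0.50, 0.48 and -0.18. Il6ra, the IL-6 binding chain, was at 368, 1186 and 444 in WT and 439, 410 and 274 in DKO (-0.64 ± 0.42, adjusted p = 0.537). At this probe set the WT mean rested on WT replicate 2, without which the difference was -0.13. A dimmer Il6ra probe set had signals of 88.7, 235 and 75.6 in WT and 64.1, 10.9 and 75.1 in DKO. Its groups did not overlap, by a narrow gap, and it did not pass (-1.21 ± 0.59, adjusted p = 0.384).

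The erythropoietin receptor gene Epor had signals of 117, 362 and 66.2 in WT and 131, 87.4 and 131 in DKO. WT replicate 2 was above every other array, as it was for the erythroid markers. The difference of -0.30 ± 0.55 (adjusted p = 0.864) became 0.32 without that array. Of the IL-1 receptor chains, Il1r1, which binds IL-1, was 1312 ± 304 in WT against 1286 ± 37.9 in DKO (95% interval of the log2 difference -0.51 to 0.51). Its accessory chain Il1rap had signals of 177, 132 and 103 in WT and 164, 246 and 102 in DKO (0.24 ± 0.44, adjusted p = 0.860).

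Of the receptors of interferons and IL-10, 0 of 6 genes passed the threshold by limma, against 1.71% of all genes. At an unadjusted p under 0.05 there were 0, against 16.3% of all genes, and 0 passed with array quality weights. With 6 genes, counts of 0 say little beside these shares. Ifnar1 and Ifnar2, the type I interferon receptor chains, were at 0.01 ± 0.26 and -0.11 ± 0.19, with 95% intervals from -0.56 to 0.58 and from -0.51 to 0.30. Ifngr1, the interferon gamma binding chain, was at 0.27 ± 0.29. Ifngr2, its signalling chain, had signals of 304, 212 and 255 in WT and 391, 618 and 340 in DKO, without overlap (0.74 ± 0.35, adjusted p = 0.363). A dimmer Ifngr2 probe set overlapped between the groups (0.42 ± 0.36, adjusted p = 0.649). Il10ra and Il10rb, the IL-10 receptor chains, were at -0.22 ± 0.41 and -0.02 ± 0.36. Il10rb, Ifnar1, Ifnar2 and Ifngr2 are neighbours on chromosome 16 with 0 coding genes between them. By the brightest probe set, Ifngr2 was the 1 among them whose groups did not overlap, which its dimmer probe set did not repeat.

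Of the other receptors, Tnfrsf1b, the TNF receptor found on blood cells, had signals of 4562, 4083 and 3965 in WT and 2379, 3177 and 2451 in DKO. Every DKO array was below every WT array, at -0.66 ± 0.18 (adjusted p = 0.113). Tnfrsf1a, the widely expressed TNF receptor, was at -0.02 ± 0.38. Il17ra, the IL-17 receptor chain, was at -0.35 ± 0.16 (adjusted p = 0.350) and Il13ra1, the IL-13 receptor chain, at 0.47 ± 0.77. The last ranged from 49.6 to 687 within WT alone, highest in WT replicate 2, without which the difference was 1.52 (adjusted p = 0.236). With any 1 array left out the Il13ra1 difference lay between -0.19 and 1.52. Across the 40 genes WT replicate 2 was the highest WT array in 20, WT replicate 1 in 14 and WT replicate 3 in 6.

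**Figure D4:**
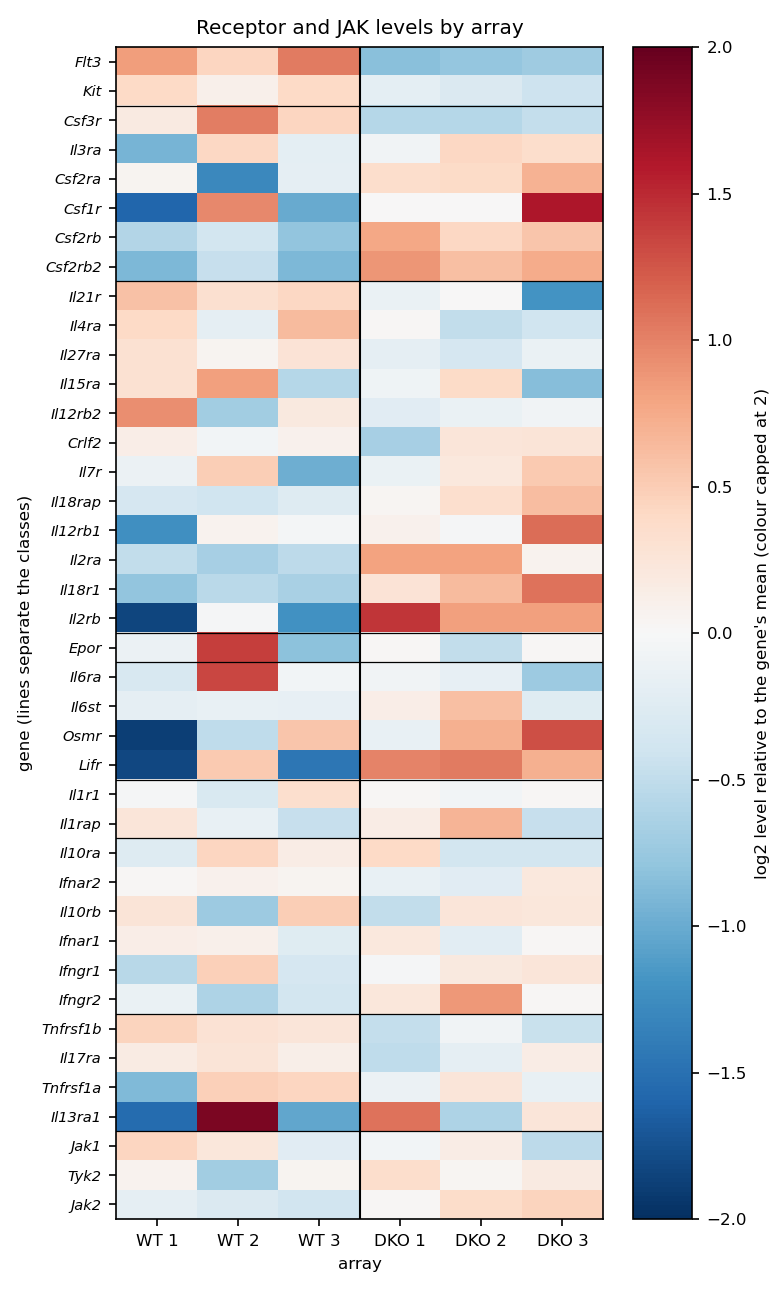
Level of each of the 40 genes (y axis, grouped by class) on each array (x axis), in log2 units centred on the average of that gene and coloured from blue, low, to red, high. Flt3 is red in WT, Csf2rb and Csf2rb2 are red in DKO, and Epor, Il6ra and Il13ra1 are red in WT replicate 2.

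None of the measured JAK kinases passed. Jak2, the kinase of the erythropoietin, thrombopoietin and common beta chain receptors, had signals of 2675, 2474 and 2326 in WT and 3062, 3906 and 4129 in DKO. The groups did not overlap, but the difference of 0.56 ± 0.19 did not pass (adjusted p = 0.186). A dimmer Jak2 probe set was at 0.72 ± 0.28 (adjusted p = 0.252). Jak1, the partner of gp130, gamma chain and interferon receptors, was at -0.28 ± 0.26 at its brightest probe set and at -0.64 ± 0.24 and 0.16 ± 0.31 at the others. Tyk2, which serves type I interferon and IL-12 receptors, was at 0.38 ± 0.32. A dimmer Tyk2 probe set was at 0.96 ± 0.53 (adjusted p = 0.442), with overlap between the groups.

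Of the 23 genes with more than 1 tested probe set, 10 had probe sets of both signs. They were Csf1r, Csf2ra, Il4ra, Il7r, Il15ra, Il6st, Ifnar1, Ifnar2, Il10ra and Jak1, none of which passed at any probe set. Flt3 and Csf2rb2 rest on 1 probe set each. Over the 71 tested probe sets 5 passed (7.04%, against 1.37% of all 27022 tested), 4 higher and 1 lower. They were both Csf2rb probe sets, those of Csf2rb2 and Flt3, and the dimmer one of Il2rb. The Il2rb one passed the limit on low values through its DKO signals, and Csf2rb and Csf2rb2 are close copies. The 5 are therefore not independent, and the share adds no support to the calls.

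**Figure D5:**
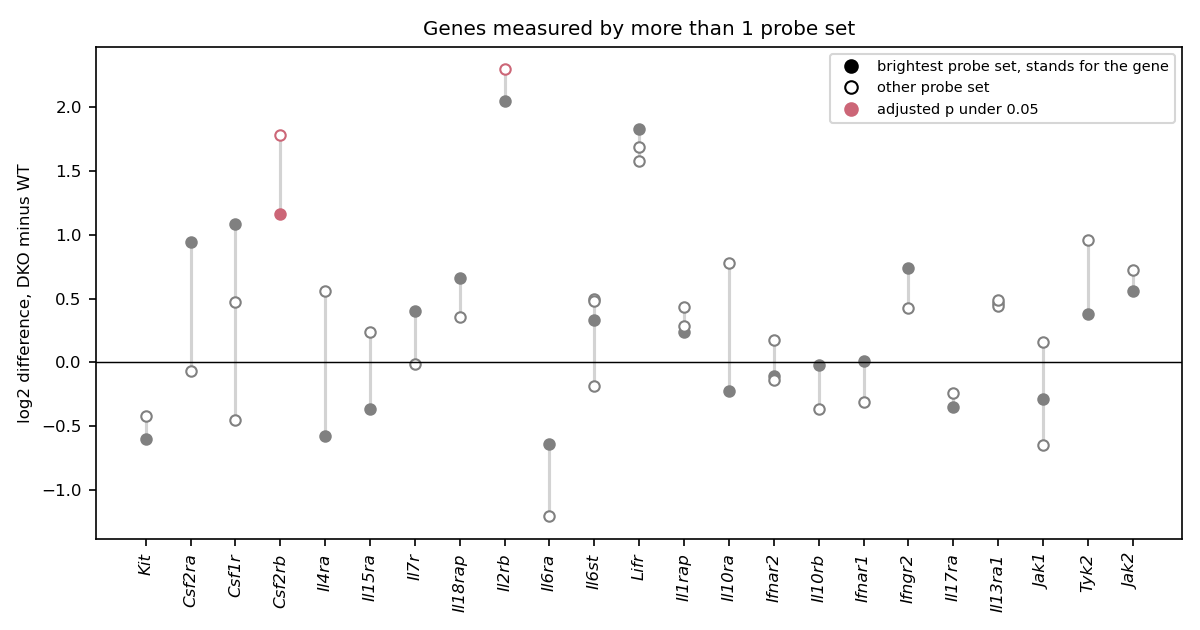
Log2 difference, DKO minus WT (y axis), of every tested probe set of the 23 genes with more than 1 (x axis). Filled points are the brightest probe set of a gene, open points the others, and red ones passed an adjusted p of 0.05. The probe sets of Csf2rb, Il2rb and Lifr lie on the same side of 0, while those of Csf1r and Il4ra lie on both.

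Ligands of these receptors held the changes among other genes of the pathway. A list of 91 further genes of JAK and STAT signalling, ligands and related receptors had 62 measured genes. Of these 2 rose and 2 fell, beside 1.08% and 0.633% of all genes, and all 4 were ligands. Il6 had signals of 1.5, 6.90 and 11.1 in WT and 410, 140 and 241 in DKO (3.54 ± 0.51, adjusted p = 0.00581). Ifng, interferon gamma, had signals of 6.50, 10.0 and 79.1 in WT and 259, 424 and 463 in DKO (3.34 ± 0.57, adjusted p = 0.0161). WT signals of both were near the bottom of the scale, so the size of these rises depends on the offset of 16. They passed the limit on low values through their DKO signals.

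The falls were those of Il18 and Il12a. Il18, the ligand of Il18r1, had signals of 541, 720 and 466 in WT and 95.3, 83.8 and 192 in DKO (-2.14 ± 0.39, adjusted p = 0.0226). Il12a, a subunit of IL-12, had signals of 1071, 493 and 1024 in WT and 299, 259 and 210 in DKO (-1.63 ± 0.36, adjusted p = 0.0498). The call of Il12a was also lost with an offset of 1 (adjusted p = 0.0588), no filter (adjusted p = 0.0893), quantile normalization (adjusted p = 0.0664), median centring (adjusted p = 0.0607), no trend (adjusted p = 0.135) and the replicate block (adjusted p = 0.0668), so that it was lost in 11 of 16 alternatives. That of Il18 was lost without a trend (adjusted p = 0.0632) and with the replicate block (adjusted p = 0.0511). Ifng lost its call without a trend (adjusted p = 0.0685). Leaving out any single array but WT replicate 2 took the adjusted p of Il12a past the threshold, to 0.208 at most. For Il18 this held for WT replicates 1 and 2 and DKO replicates 1 and 2 (at most 0.0970), and for Ifng for WT replicate 1 and each DKO replicate (at most 0.0928). Il6 passed without each WT replicate (adjusted p up to 0.0298) and, with a DKO array left out, was under the limit on low values.

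In the pathway lists other than the ligands no gene passed. Of 6 measured STAT factors 3 were higher and 3 lower, with Stat4 the smallest p (-0.53 ± 0.29, adjusted p = 0.427). Stat5a, Stat5b and Stat3, used by most of the receptors here, were at 0.16, -0.09 and -0.12. Among 16 inhibitors Socs5 had the smallest p (-1.03 ± 0.26, adjusted p = 0.0790), and without WT replicate 2 its adjusted p was 0.0465. Among all alternative settings and arrays left out, 2 took Socs5 past the threshold and 14 did not. Cish, a feedback inhibitor that STAT5 induces, was at 1.21 ± 0.45 (adjusted p = 0.238) with 212 ± 113 in WT against 459 ± 73.4 in DKO, and was named after its value was seen. Among 8 adaptors Pik3r1 had the smallest p (-0.37 ± 0.15, adjusted p = 0.278), and among 11 target genes it was Osm, oncostatin M (316, 440 and 258 in WT against 1856, 788 and 663 in DKO, 1.54 ± 0.39, adjusted p = 0.0857). Of 10 other receptors of these families Il5ra, above, had the smallest p.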

How the data were processed

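Gene expression was measured on Affymetrix arrays in 3 WT and 3 DKO pools. Per the submitters' processing notes, the authors made the deposited signal intensity values with MAS5. The deposited intensity values had a trimmed mean of 500 on each array (2% trimmed at each end), and the sources used here give no genome build. From these values log2(signal + 16) was computed, the lowest 40% of probe sets by mean (signal under about 53.2) and 64 controls were left out, and 27022 probe sets were fitted with limma 3.58.1 in R 4.3.3 (lmFit, eBayes with an intensity trend). P-values were adjusted by Benjamini-Hochberg over all 27022, with a threshold of 0.05. They measure the spread between pools. The brightest tested probe set stood for a gene, and levels were not compared between genes.

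Signals are means ± SD and log2 differences carry the standard error, with n = 3 per group. The number of arrays limits the precision. Of 45037 probe sets 34945 had 1 gene symbol, 932 several (unused) and 9160 none in the platform annotation, and 34741 symbols matched RefSeq. No column belonged to other samples (0). The members and lists were chosen with earlier results of these data known. Values per array were given for genes past the threshold, Kit, Flt3, Csf2rb, Csf2rb2, Il6st, Il7r, Jak2 and the smallest p in each class, and, chosen after their values were seen, for further genes. Pathway genes were named when past the threshold or with the smallest p of their list. Cish, Stat3, Stat5a, Stat5b, Gzmb, Cd3e, Eomes, Fcer1a, Ccr3 and the stem cell markers were named after their values were seen. Alternatives were the offset, filter, scaling, trend, array weights, replicate block, probe set rule, threshold and each array left out. The scripts were tested on simulated data, and promoter windows and plots were made with Python 3.11.15 and matplotlib 3.10.9.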

Additional observations from a re-analysis of the deposited data

How the results depend on the processing

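The array calls rest on 3 pools per group and on the variance model. Among the 40 receptor and kinase genes 3 passed, against 0 without an intensity trend (14 at an unadjusted p under 0.05), 6 with array quality weights (Il2rb, Il18r1 and Lifr added), 5 with probe sets averaged (Il2rb and Il18r1 added), 5 at a threshold of 0.10 and 0 to 5 with an array left out. They numbered 1 (Csf2rb2) without WT replicate 1, 5 without WT replicate 2 (Il2rb and Lifr added), 0 without DKO replicate 1 and 0 without DKO replicate 3 (14 at an unadjusted p under 0.05 in both). The offset, the filter, quantile normalization and median centring left the same 3 genes. Over all genes 197 passed, against 117 with no filter, 40 without a trend, 308 with array weights, 385 at 0.10 and 53 to 268 with an array left out. Of the pathway genes 4 passed, against 2 with an offset of 1, 2 with the lowest 60% left out, 1 without a trend, 7 with array weights, 7 at 0.10 and 0 to 5 with an array left out. Where a call was lost the cause was not tested.

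The class difference of stem cell receptors minus myeloid chains was -1.75, or -2.24 with the lowest 60% left out, where fewer genes remain, and -2.07 to -1.56 with an array left out. That of stem cell receptors minus lymphoid chains was -1.55 to -1.25, and that of myeloid minus lymphoid chains 0.24 to 0.52 with an array left out and 1.02 with the lowest 60% left out. With an array left out Epor lay between -0.78 and 0.32, positive without WT replicate 2, and Il1rap between -0.040 and 0.54, negative without DKO replicate 2. Of 343 further values of single genes under an alternative, 299 kept direction and side of the threshold, 33 lost the call, 9 gained one and 2 turned, the 2 just named. With the replicate number as a replicate block, 167 genes passed over all, 3 of the receptors and kinases (the same 3) and 3 pathway genes, all higher (3 higher and 0 lower, against 2 and 2), since Il18 and Il12a lost their calls. Same-numbered arrays deviated together with correlations of 0.14, -0.03 and 0.05, so the numbers were not taken as pairs.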
